A study of Mus musculus with 16 samples.

Results

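The 28 genes described here encode the enzymes of cholesterol synthesis, the regulators of the pathway's transcription factor SREBP2 and a small set of sterol carriers and exporters. They were taken by symbol from a fixed list, which was chosen with earlier results of these data known. All 28 were found among the 27288 genes of the deposited table and passed the filter on low values. Liver RNA of C57BL/6 mice aged 8 to 10 weeks was sequenced in 4 groups of 4 libraries. Wild-type mice, and mice whose label is a knockout of DRP1 in the liver, were each studied on control diet and under the Gao-Binge alcohol protocol, a period of ethanol feeding followed by a binge. The sample titles code these arms as CDM and EDE and do not spell the codes out. Control diet here names the whole CDM arm, including whatever it received at the time of the binge. DRP1, the product of Dnm1l, divides mitochondria. All mice share the strain and tissue, and the wild-type mice are described as paired with the knockouts. The sources used here name neither the driver of the deletion nor the exons deleted. Each library is a separate sample in the labels, which do not tie it to a mouse, so the spread behind the p-values may be technical.

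Cholesterol is built from acetyl-CoA through mevalonate, the isoprenoid diphosphates, squalene and lanosterol, and the liver is a main site of this synthesis. SREBP2, encoded by Srebf2, is a membrane-bound transcription factor of the endoplasmic reticulum that raises most enzymes of the pathway. When sterols are low the escort protein SCAP carries it to the Golgi for cleavage, and when sterols are high INSIG1 and INSIG2 hold SCAP and SREBP2 in the endoplasmic reticulum. Insig1 is itself an SREBP target, whereas Insig2 is not, and in mouse liver Insig2 has alternative first exons, one of which is lowered by insulin. SREBP2 binds sterol regulatory elements together with the CCAAT-binding factor NF-Y and the GC-box factor SP1.

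Promoters are printed for the early enzyme Hmgcs1, the Insig genes that moved in opposite directions, and Mvd, an enzyme with one of the deepest falls. The windows are from RefSeq on GRCm38.p6, run from 250 bases before to 50 bases after an annotated start, and are written 5′ to 3′ on the strand of the gene. Hmgcs1 lies at chr13:119690101-119690400 on the plus strand, Insig1 at chr5:28071162-28071461 on the plus strand and Mvd at chr8:122443373-122443672 on the minus strand. Insig2 has 3 windows on the minus strand, the distal one at chr1:121332540-121332839, the middle one at chr1:121327975-121328274 and the proximal one at chr1:121327629-121327928. Capitals mark TCACNCCAC (sterol regulatory element), CCAAT (NF-Y box) and GGGCGG (GC box), each on either strand, so that a box on the opposite strand reads as ATTGG or CCGCCC.
Hmgcs1: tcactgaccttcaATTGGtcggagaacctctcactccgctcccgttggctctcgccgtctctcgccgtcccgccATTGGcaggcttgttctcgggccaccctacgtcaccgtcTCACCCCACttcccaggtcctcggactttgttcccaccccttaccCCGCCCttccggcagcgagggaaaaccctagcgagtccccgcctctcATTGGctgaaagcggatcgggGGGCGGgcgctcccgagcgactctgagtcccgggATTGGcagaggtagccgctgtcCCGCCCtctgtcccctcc
Insig1: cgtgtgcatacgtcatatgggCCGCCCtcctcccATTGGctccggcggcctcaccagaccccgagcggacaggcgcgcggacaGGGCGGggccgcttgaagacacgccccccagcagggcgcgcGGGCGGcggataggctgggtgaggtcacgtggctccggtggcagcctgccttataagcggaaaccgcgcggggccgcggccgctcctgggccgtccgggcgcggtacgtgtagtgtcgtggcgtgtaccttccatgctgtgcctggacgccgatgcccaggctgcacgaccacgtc
Mvd: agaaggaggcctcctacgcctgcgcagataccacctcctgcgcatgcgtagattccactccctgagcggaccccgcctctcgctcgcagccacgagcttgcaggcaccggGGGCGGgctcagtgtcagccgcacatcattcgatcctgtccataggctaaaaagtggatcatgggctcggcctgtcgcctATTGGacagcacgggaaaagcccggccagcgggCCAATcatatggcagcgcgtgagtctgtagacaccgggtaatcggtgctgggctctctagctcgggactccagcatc
Insig2 distal: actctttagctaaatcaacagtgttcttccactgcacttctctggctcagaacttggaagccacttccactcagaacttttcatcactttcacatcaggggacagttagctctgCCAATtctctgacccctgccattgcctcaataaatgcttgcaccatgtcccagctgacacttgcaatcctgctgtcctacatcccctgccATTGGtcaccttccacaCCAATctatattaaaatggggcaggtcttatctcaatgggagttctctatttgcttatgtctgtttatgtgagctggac
Insig2 middle: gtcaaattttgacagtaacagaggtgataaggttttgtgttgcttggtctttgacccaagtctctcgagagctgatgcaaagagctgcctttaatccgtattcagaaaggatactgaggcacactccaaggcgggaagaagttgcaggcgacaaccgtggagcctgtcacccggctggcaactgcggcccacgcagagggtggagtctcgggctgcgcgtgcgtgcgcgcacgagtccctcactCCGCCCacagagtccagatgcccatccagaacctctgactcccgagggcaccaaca
Insig2 proximal: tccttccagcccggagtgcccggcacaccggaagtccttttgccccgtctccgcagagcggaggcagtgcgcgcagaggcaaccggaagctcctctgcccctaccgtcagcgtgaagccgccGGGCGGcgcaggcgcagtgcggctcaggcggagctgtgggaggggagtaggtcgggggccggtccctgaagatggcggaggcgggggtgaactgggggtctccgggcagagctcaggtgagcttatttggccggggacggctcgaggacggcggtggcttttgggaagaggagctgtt

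A promoter window was found for 24 of the 28 genes. Fdps, Fdft1, Sqle and Stard4 had no entry. CCAAT was present in at least 1 window of 21 of 24 genes, which is 87.5%, against 42.8% of the 9760 tested genes with a window and 37.4% of all 32851 windows. The 3 genes without it were Acat2, Aacs and Scap. Within the last 100 bases before a start it was present in 16 of the 24, against 25.9% of tested genes, and 13 genes had 2 or more copies in 1 window. GGGCGG was present in 19 of 24 genes, or 79.2%, against 66.5% of tested genes and 35.7% of windows. The strict letters TCACNCCAC were present in Hmgcs1 only, 1 of 24 genes or 4.17%, against 1.51% of tested genes and 1.24% of windows. No 2 of these motifs shared a base in the members' windows. The Hmgcs1 window printed above holds 4 CCAAT boxes, 3 GC boxes and the element. In Insig2 the distal window holds 3 CCAAT boxes and no GC box, whereas the middle and proximal windows each hold 1 GC box and no CCAAT. These letter matches describe the windows and do not show binding, and the deposited values sum over a gene's transcripts, so the 3 Insig2 starts were not separated.

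Each library held 11425136 to 13864862 reads assigned to genes, and 13256 genes were tested. Dnm1l was at 663 ± 56.1 normalised reads in wild-type control livers and 642 ± 72.7 in those labelled knockout, and after ethanol at 743 ± 38.4 and 803 ± 99.3 (SD, n = 4 each), so reads over the whole gene did not separate the genotypes (limma adjusted p = 0.825 and 0.59). Where only some exons are deleted such a count is no check of the label, and the genotypes are named as labelled throughout. The 7 hepatocyte markers were detected in all 16 libraries and held 11.5 to 12.7% of the normalised reads in wild-type control, 10.9 to 12.5% in wild-type ethanol, 10.0 to 10.8% in labelled knockout control and 9.85 to 12.4% in labelled knockout ethanol livers. Labelled knockout ethanol library 1 carried pancreas transcripts and library 4 the highest blood and fat transcripts, and calls of the 28 genes that were lost without both are given below with their values. In whole liver, fewer cells of a type and less RNA per cell cannot be told apart.

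On control diet the highest levels per kilobase of exon belonged to enzymes early and late in the pathway and to Insig1. Sc5d, the sterol C5-desaturase, led in wild type with 2188 ± 698 normalised reads per kilobase (SD, n = 4), followed by Hmgcs1 at 1525 ± 1024, Ebp at 1221 ± 189.6 and Insig1 at 1214 ± 289.8. The libraries of neighbours in this order overlapped. Livers labelled knockout had the same 4 genes at the top. The lowest in wild type were Fdps, Ggps1 and Idi1, at 83.1, 30.5 and 29.7 normalised reads per kilobase. Fdps shares 1124 exon bases, 26.7% of its exon length, with Gm43738 on the same strand. Reads over these bases may not have been counted for Fdps, so its level may be understated. After ethanol Insig2 was first in both genotypes, at 3749.8 ± 1548 in wild type and 3634 ± 936 in the labelled knockout, and its libraries did not overlap those of the next gene, Ebp. The 20 synthesis enzymes together held 0.340 ± 0.127% of reads in wild-type control and 0.142 ± 0.0294% in wild-type ethanol libraries, and 0.290 ± 0.0781% and 0.139 ± 0.0168% in the labelled knockout (SD, n = 4 each). These shares did not overlap between the diets within either genotype.

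Ethanol lowered most of the pathway in both genotypes and raised Insig2. In wild type 18 of 28 genes fell and 1 rose, against 19% of all tested genes lower, 18.9% higher and 38% in either direction (limma adjusted p under 0.05, Benjamini-Hochberg, all 13256 tested genes). In the labelled knockout 15 fell and 1 rose, against 9.01% of tested genes lower, 10.2% higher and 19.2% in either direction. The median log2 change of the 28 was -1.19 in wild type and -0.93 in the labelled knockout, where the median of all tested genes was -0.01 in each. All 15 genes that fell in the labelled knockout also fell in wild type. Pmvk, Sqle and Scap passed in wild type alone, and 9 genes passed in neither genotype. Libraries of the diets did not overlap for 18 genes in wild type, against 35.1% of tested genes, and for 21 in the labelled knockout, against 23%. On the recovered reads edgeR called 22 and 17 of the 28, against 37.8% and 20.2% of tested genes, and DESeq2 22 and 19, against 38.9% and 22.9%. DESeq2 and edgeR added Cyp51, Tm7sf2 and Hsd17b7 in wild type. In the labelled knockout both added Sqle, and DESeq2 also Cyp51 and Pmvk. Counts by role below are those of limma. Without wild-type control libraries 2 and 3, the highest of their group on average over the 28, the wild-type median was -0.69.

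**Figure D1:**
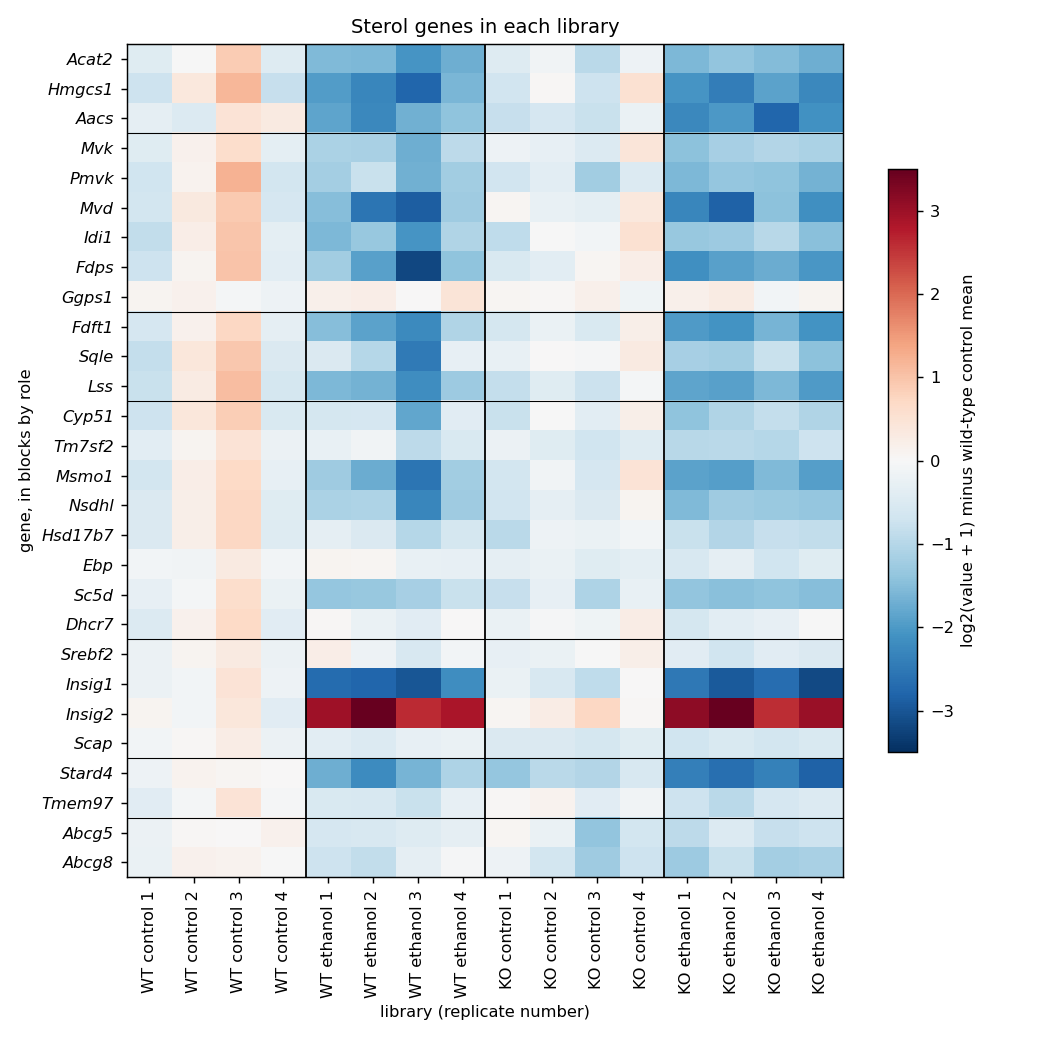
Colour shows log2(value + 1) of each gene in each library minus the mean of the 4 wild-type control libraries, with genes in blocks by role and libraries in blocks by group (WT, wild type; KO, labelled knockout). Both ethanol blocks are blue for most genes and red for Insig2, and wild-type control library 3 is the reddest control column.

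The Insig genes moved in opposite directions and furthest of the set. Insig2 (chromosome 1, 121304353-121332589, minus strand, GRCm38) encodes a protein that retains SCAP in the endoplasmic reticulum. Insig2 was at 1564, 1389.8, 1945 and 1115 normalised reads in wild-type control libraries 1 to 4 and at 11497, 20944, 9039 and 10612 in the wild-type ethanol libraries. Insig2 in the livers labelled knockout was at 1552, 1773, 2425 and 1519 on control diet and at 12814, 16755, 8839 and 12082 after ethanol. Insig2 rose to 8.36-fold (95% interval 5.83 to 12, limma adjusted p = 2.60e-07) in wild type and to 6.89-fold (95% interval 4.81 to 9.88, limma adjusted p = 3.56e-06) in the labelled knockout. Every ethanol library lay far above every control library. Insig1 (chromosome 5, 28071363-28078662, plus strand) is the sterol-responsive partner. Insig1 was at 3203, 3476, 5086 and 3249 normalised reads in wild-type control libraries 1 to 4 and at 569, 534, 459 and 811 in the wild-type ethanol libraries. Insig1 in the livers labelled knockout was at 3121, 2478, 1987 and 3749.7 on control diet and at 646, 478, 581 and 411 after ethanol. Insig1 fell to 0.158-fold (95% interval 0.116 to 0.215, limma adjusted p = 2.47e-07) in wild type and to 0.189-fold (95% interval 0.139 to 0.258, limma adjusted p = 3.56e-06) in the labelled knockout. No library of either diet entered the range of the other. Among all 13256 genes Insig2 ranked 70 from the top by log2 change in wild type and 34 in the labelled knockout. Per kilobase of exon, the ratio of Insig2 to Insig1 was 0.359 ± 0.0546 in wild-type control and 20.5 ± 10.0 in wild-type ethanol livers, and 0.632 ± 0.325 and 22.1 ± 8.01 in the labelled knockout (SD, n = 4 each). Their sum per kilobase was 1647 ± 378 and 3942 ± 1541 in wild type and 1439.5 ± 153 and 3805 ± 926 in the labelled knockout. Insig1 was the higher of the pair per kilobase in 7 of the 8 control libraries, and Insig2 in all 8 ethanol libraries. In labelled knockout control library 3 the ratio was 1.09.

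**Figure D2:**
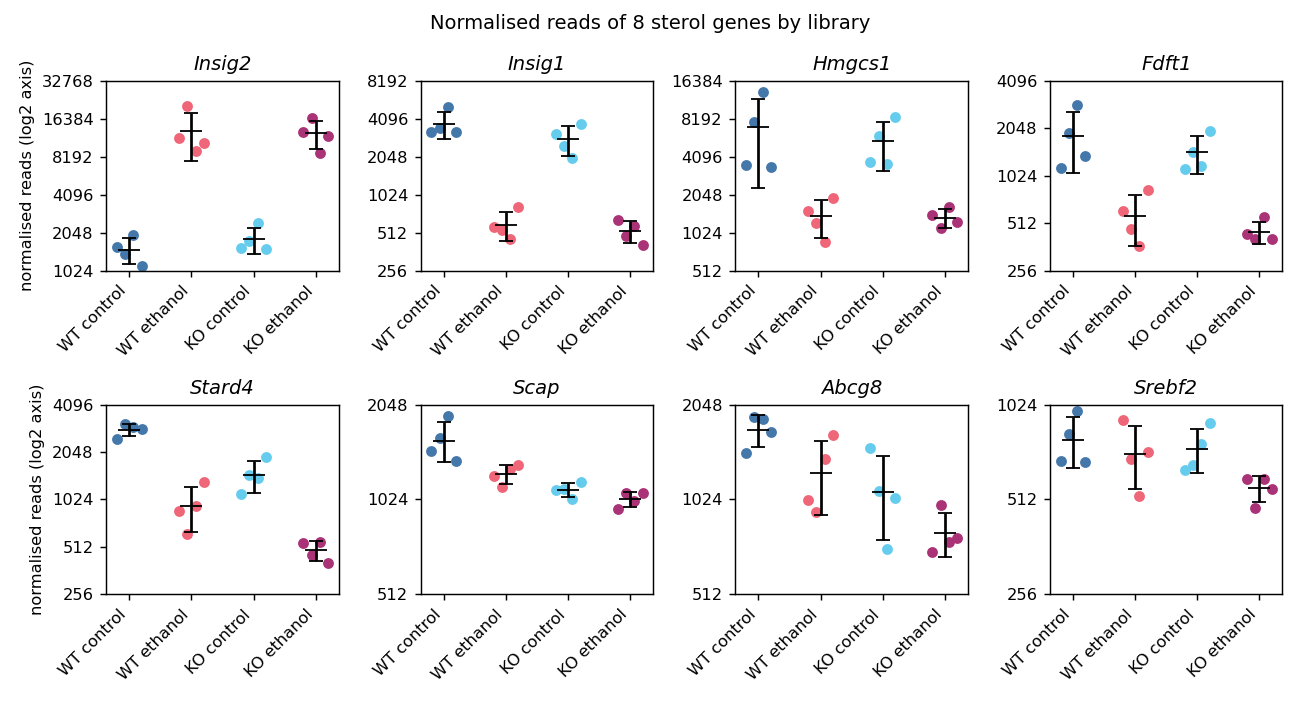
Points are normalised reads per library on a log2 axis, with the mean and SD of 4 libraries per group (WT, wild type; KO, labelled knockout). Insig2 rises and Insig1, Hmgcs1, Fdft1 and Stard4 fall with ethanol in both genotypes, and Stard4 is lower in the labelled knockout on both diets.

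The early steps to mevalonate fell together. All 3 genes of this group passed the test in both genotypes. Acat2 makes acetoacetyl-CoA in the cytosol. Acat2 was at 813, 1071, 2027 and 795 normalised reads in wild-type control libraries 1 to 4 and at 375, 365, 262 and 335 in the wild-type ethanol libraries. Acat2 in the livers labelled knockout was at 792, 990.4, 562 and 963 on control diet and at 366, 419.9, 378 and 335 after ethanol. Acat2 fell to 0.305-fold (95% interval 0.214 to 0.434, limma adjusted p = 5.27e-05) in wild type and to 0.463-fold (95% interval 0.325 to 0.660, limma adjusted p = 0.00461) in the labelled knockout. The diets did not overlap in either genotype, though a near-identical copy, Acat3, may share reads with Acat2. Hmgcs1 is the cytosolic HMG-CoA synthase. Hmgcs1 was at 3557, 7700.4, 13396 and 3372 normalised reads in wild-type control libraries 1 to 4 and at 1527, 1220.0, 869 and 1940.2 in the wild-type ethanol libraries. Hmgcs1 in the livers labelled knockout was at 3701, 6045, 3616 and 8528 on control diet and at 1404, 1116, 1629.7 and 1234 after ethanol. Hmgcs1 fell to 0.225-fold (95% interval 0.129 to 0.391, limma adjusted p = 3.55e-04) in wild type and to 0.260-fold (95% interval 0.150 to 0.452, limma adjusted p = 0.00225) in the labelled knockout. Control libraries spread widely, with wild-type 2 and 3 and labelled knockout 2 and 4 well above the rest, yet all lay above the ethanol libraries. Aacs activates acetoacetate in the cytosol and so feeds ketone carbon into lipid synthesis. Aacs was at 2083, 1846, 3582 and 3214 normalised reads in wild-type control libraries 1 to 4 and at 714, 542, 804 and 972 in the wild-type ethanol libraries. Aacs in the livers labelled knockout was at 1476, 1716, 1514 and 2194 on control diet and at 541, 642, 378 and 596 after ethanol. Aacs fell to 0.288-fold (95% interval 0.207 to 0.400, limma adjusted p = 1.81e-05) in wild type and to 0.311-fold (95% interval 0.224 to 0.432, limma adjusted p = 1.16e-04) in the labelled knockout. Here wild-type control library 4 was also high, unlike its rank for Hmgcs1, and the diets again did not overlap.

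From mevalonate to farnesyl diphosphate, 5 of 6 genes fell in wild type and 4 of 6 in the labelled knockout. Mvk phosphorylates mevalonate first. Mvk was at 229.7, 340.0, 473 and 244 normalised reads in wild-type control libraries 1 to 4 and at 143, 139.8, 93.8 and 161 in the wild-type ethanol libraries. Mvk in the livers labelled knockout was at 272, 251, 223 and 412 on control diet and at 114, 138, 150.5 and 142 after ethanol. Mvk fell to 0.430-fold (95% interval 0.308 to 0.600, limma adjusted p = 5.96e-04) in wild type and to 0.483-fold (95% interval 0.346 to 0.675, limma adjusted p = 0.00461) in the labelled knockout. Both falls were without overlap. Pmvk adds the next phosphate. Pmvk was at 519.6, 922, 1989.6 and 544 normalised reads in wild-type control libraries 1 to 4 and at 373, 494, 263 and 365 in the wild-type ethanol libraries. Pmvk in the livers labelled knockout was at 534, 657, 362 and 611 on control diet and at 283, 330.0, 319 and 271 after ethanol. Pmvk fell to 0.430-fold (95% interval 0.269 to 0.689, limma adjusted p = 0.00696) in wild type and was at 0.569-fold (95% interval 0.356 to 0.911, limma adjusted p = 0.0855) in the labelled knockout. In the labelled knockout the diets did not overlap, although the test was not passed. Mvd decarboxylates the product to isopentenyl diphosphate. Mvd was at 229, 453, 683 and 238 normalised reads in wild-type control libraries 1 to 4 and at 128, 60.6, 48.3 and 152 in the wild-type ethanol libraries. Mvd in the livers labelled knockout was at 377, 299, 284 and 463 on control diet and at 72.8, 50.1, 131 and 80.8 after ethanol. Mvd fell to 0.243-fold (95% interval 0.138 to 0.431, limma adjusted p = 7.05e-04) in wild type and to 0.228-fold (95% interval 0.129 to 0.404, limma adjusted p = 0.00145) in the labelled knockout. The lowest levels were in wild-type ethanol library 3 and labelled knockout ethanol library 2. Idi1 interconverts the isoprenoid building blocks. Idi1 was at 50.3, 108, 184 and 73.7 normalised reads in wild-type control libraries 1 to 4 and at 30.7, 36.1, 21.4 and 44.0 in the wild-type ethanol libraries. Idi1 in the livers labelled knockout was at 49.7, 92.8, 87.5 and 135 on control diet and at 36.4, 37.8, 46.7 and 32.7 after ethanol. Idi1 fell to 0.352-fold (95% interval 0.213 to 0.582, limma adjusted p = 0.00260) in wild type and to 0.449-fold (95% interval 0.272 to 0.743, limma adjusted p = 0.0268) in the labelled knockout. Idi1 has the fewest reads of the set, and its diets did not overlap in either genotype. Fdps joins these units into farnesyl diphosphate. Fdps was at 188, 337, 633 and 241 normalised reads in wild-type control libraries 1 to 4 and at 134, 82.7, 33.4 and 117 in the wild-type ethanol libraries. Fdps in the livers labelled knockout was at 214, 241, 331 and 369 on control diet and at 69.8, 82.8, 93.4 and 75.1 after ethanol. Fdps fell to 0.262-fold (95% interval 0.151 to 0.454, limma adjusted p = 8.16e-04) in wild type and to 0.286-fold (95% interval 0.164 to 0.496, limma adjusted p = 0.00352) in the labelled knockout. Wild-type ethanol library 3 was the lowest of all. Ggps1, which leads off the sterol path to geranylgeranyl diphosphate, ranged from 126 to 160.1 in wild-type control, 146 to 197 in wild-type ethanol, 128 to 161 in labelled knockout control and 135 to 175 in labelled knockout ethanol livers. Its groups overlapped throughout, and its ethanol change was 1.17-fold (95% interval 0.970 to 1.40, limma adjusted p = 0.178) in wild type and 1.06-fold (95% interval 0.885 to 1.28, limma adjusted p = 0.658) in the labelled knockout.

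At squalene and lanosterol all 3 genes fell in wild type and Fdft1 and Lss in the labelled knockout. Fdft1, squalene synthase, is the first enzyme committed to sterols. Fdft1 was at 1156, 1925, 2866 and 1377 normalised reads in wild-type control libraries 1 to 4 and at 608, 473, 367 and 837 in the wild-type ethanol libraries. Fdft1 in the livers labelled knockout was at 1131, 1461, 1188 and 1984 on control diet and at 435, 407, 557 and 405 after ethanol. Fdft1 fell to 0.317-fold (95% interval 0.214 to 0.470, limma adjusted p = 1.83e-04) in wild type and to 0.319-fold (95% interval 0.215 to 0.473, limma adjusted p = 6.25e-04) in the labelled knockout. The diets did not overlap. Fdft1 shares 774 exon bases with the more abundant Ctsb on the opposite strand, and as the strand setting of the counting is not given, its values may include reads of Ctsb. Sqle, squalene epoxidase, is a rate-controlling oxygenase. Sqle was at 888, 2078, 3059 and 1111 normalised reads in wild-type control libraries 1 to 4 and at 1104, 797, 285 and 1294 in the wild-type ethanol libraries. Sqle in the livers labelled knockout was at 1321, 1608, 1546 and 1972 on control diet and at 703, 677, 914 and 589.9 after ethanol. Sqle fell to 0.477-fold (95% interval 0.266 to 0.857, limma adjusted p = 0.0444) in wild type and was at 0.447-fold (95% interval 0.249 to 0.801, limma adjusted p = 0.0505) in the labelled knockout. In wild type the diets overlapped, since ethanol libraries 1 and 4 lay above control library 1, whereas in the labelled knockout they did not overlap. Lss closes the ring to lanosterol. Lss was at 668, 1385, 2431 and 747 normalised reads in wild-type control libraries 1 to 4 and at 382, 361, 254 and 468 in the wild-type ethanol libraries. Lss in the livers labelled knockout was at 639, 850.2, 673 and 1095 on control diet and at 318, 305, 382 and 286 after ethanol. Lss fell to 0.315-fold (95% interval 0.200 to 0.496, limma adjusted p = 5.64e-04) in wild type and to 0.404-fold (95% interval 0.257 to 0.636, limma adjusted p = 0.00778) in the labelled knockout. Neither genotype showed overlap.

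Between lanosterol and cholesterol Msmo1, Nsdhl and Sc5d fell in both genotypes by limma, and the other 5 enzymes passed in neither. Cyp51, Tm7sf2 and Hsd17b7 were called in wild type by edgeR (adjusted p = 0.0419, 0.0488 and 0.0311) and by DESeq2 (adjusted p = 0.0172, 0.0371 and 0.0157), and Cyp51 in the labelled knockout by DESeq2 (adjusted p = 0.0364). Msmo1 is the C4-methyl oxidase. Msmo1 was at 2199, 3986, 5544 and 2771 normalised reads in wild-type control libraries 1 to 4 and at 1447, 1023, 573 and 1458 in the wild-type ethanol libraries. Msmo1 in the livers labelled knockout was at 2185, 3142, 2266 and 4775 on control diet and at 936, 888, 1174 and 887 after ethanol. Msmo1 fell to 0.310-fold (95% interval 0.196 to 0.489, limma adjusted p = 5.40e-04) in wild type and to 0.329-fold (95% interval 0.208 to 0.519, limma adjusted p = 0.00225) in the labelled knockout. Labelled knockout ethanol library 3 stood above the other 3 of its group. Nsdhl removes the oxidised C4 carbon. Nsdhl was at 1115, 1826, 2630.4 and 1182 normalised reads in wild-type control libraries 1 to 4 and at 729.7, 755, 327 and 670.0 in the wild-type ethanol libraries. Nsdhl in the livers labelled knockout was at 1002, 1280.1, 1121 and 1701 on control diet and at 548, 672, 639.8 and 622 after ethanol. Nsdhl fell to 0.372-fold (95% interval 0.25 to 0.553, limma adjusted p = 6.75e-04) in wild type and to 0.495-fold (95% interval 0.333 to 0.737, limma adjusted p = 0.0153) in the labelled knockout. The diets did not overlap. Sc5d introduces the C5 double bond. Sc5d was at 8449.9, 9748, 15670.3 and 8711 normalised reads in wild-type control libraries 1 to 4 and at 4037, 4093, 4577 and 5958 in the wild-type ethanol libraries. Sc5d in the livers labelled knockout was at 5849.5, 8429.5, 4908 and 8546 on control diet and at 3952, 3756, 3889.7 and 3649 after ethanol. Sc5d fell to 0.447-fold (95% interval 0.334 to 0.600, limma adjusted p = 3.16e-04) in wild type and to 0.565-fold (95% interval 0.421 to 0.758, limma adjusted p = 0.00906) in the labelled knockout. The 4 labelled knockout ethanol libraries lay close together. Cyp51 is the lanosterol demethylase. Cyp51 was at 2028, 4439.7, 6116 and 2319 normalised reads in wild-type control libraries 1 to 4 and at 2187, 2257, 958 and 2572 in the wild-type ethanol libraries. Cyp51 in the livers labelled knockout was at 1946, 3349, 2603 and 3842 on control diet and at 1264, 1628, 1892 and 1632 after ethanol. Cyp51 was at 0.556-fold (95% interval 0.339 to 0.911, limma adjusted p = 0.0572) in wild type and at 0.559-fold (95% interval 0.341 to 0.917, limma adjusted p = 0.0912) in the labelled knockout. Its diets overlapped in wild type and touched without overlap in the labelled knockout. Tm7sf2 is a C14 sterol reductase. Tm7sf2 was at 1519, 2072, 2735 and 1677 normalised reads in wild-type control libraries 1 to 4 and at 1626, 1791, 1033 and 1339.9 in the wild-type ethanol libraries. Tm7sf2 in the livers labelled knockout was at 1705, 1447, 1213 and 1431 on control diet and at 997, 1011, 980.3 and 1181 after ethanol. Tm7sf2 was at 0.727-fold (95% interval 0.559 to 0.946, limma adjusted p = 0.0527) in wild type and at 0.723-fold (95% interval 0.556 to 0.940, limma adjusted p = 0.0769) in the labelled knockout. The overlap pattern was that of Cyp51. Cyp51 shares 166 exon bases with Akap9 on the opposite strand, as Ggps1 does 257 with Arid4b, and Tm7sf2 shares 532 exon bases with Vps51 on the same strand.

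The other 3 late enzymes overlapped between diets in both genotypes. Hsd17b7, a 3-ketosteroid reductase, ranged from 958 to 2249 and 671 to 1079.8 normalised reads in wild-type control and ethanol livers and from 701 to 1256 and 668 to 781 in those labelled knockout. Hsd17b7 was at 0.653-fold (95% interval 0.462 to 0.925, limma adjusted p = 0.0505) in wild type and 0.704-fold (95% interval 0.497 to 0.996, limma adjusted p = 0.143) in the labelled knockout. Ebp, the sterol isomerase, was at 0.939-fold (95% interval 0.787 to 1.12, limma adjusted p = 0.587) and 0.888-fold (95% interval 0.744 to 1.06, limma adjusted p = 0.334) in the same order. Dhcr7, the last reductase of one branch, ranged from 1027 to 2334 and 1074 to 1475 in wild type and 1213 to 1702 and 936 to 1408 in the labelled knockout. Dhcr7 was at 0.905-fold (95% interval 0.665 to 1.23, limma adjusted p = 0.621) and 0.820-fold (95% interval 0.603 to 1.12, limma adjusted p = 0.356). The unadjusted intervals of Hsd17b7 lay below 1 without the adjusted test being passed, and those of Ebp and Dhcr7 include a modest fall as well as no change.

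Of the transcription factor and its escort, Srebf2 did not pass in either genotype. Srebf2 was at 680.3, 826, 979 and 672 normalised reads in wild-type control libraries 1 to 4 and at 918, 691, 525 and 724 in the wild-type ethanol libraries. Srebf2 in the livers labelled knockout was at 636, 659.9, 767 and 896 on control diet and at 594, 481, 596 and 553 after ethanol. Srebf2 was at 0.899-fold (95% interval 0.710 to 1.14, limma adjusted p = 0.479) in wild type and at 0.756-fold (95% interval 0.597 to 0.958, limma adjusted p = 0.0896) in the labelled knockout. Labelled knockout livers showed no overlap between diets, by a small margin. Scap, which chaperones SREBP2 to the Golgi, changed less than the enzymes that fell. Scap was at 1455, 1604, 1883 and 1358 normalised reads in wild-type control libraries 1 to 4 and at 1216, 1126, 1280.0 and 1321 in the wild-type ethanol libraries. Scap in the livers labelled knockout was at 1094, 1109, 1028 and 1164 on control diet and at 958, 1074, 1009.6 and 1073 after ethanol. Scap fell to 0.789-fold (95% interval 0.684 to 0.911, limma adjusted p = 0.0114) in wild type and was at 0.936-fold (95% interval 0.811 to 1.08, limma adjusted p = 0.521) in the labelled knockout. Wild-type ethanol libraries were all below the control libraries, while the diets overlapped in the labelled knockout.

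Both carriers fell. Stard4 moves cholesterol between membranes and is an SREBP2 target. Stard4 was at 2489, 3092, 2953 and 2870.0 normalised reads in wild-type control libraries 1 to 4 and at 866, 618, 926 and 1332 in the wild-type ethanol libraries. Stard4 in the livers labelled knockout was at 1106, 1464, 1393 and 1918 on control diet and at 544, 457, 553 and 402 after ethanol. Stard4 fell to 0.317-fold (95% interval 0.239 to 0.421, limma adjusted p = 9.95e-06) in wild type and to 0.337-fold (95% interval 0.254 to 0.447, limma adjusted p = 5.94e-05) in the labelled knockout. Wild-type control libraries were the highest and labelled knockout ethanol libraries the lowest, and the other groups lay between and overlapped each other. Tmem97 is the sigma-2 receptor of the endoplasmic reticulum. Tmem97 was at 789, 984, 1444 and 1007 normalised reads in wild-type control libraries 1 to 4 and at 714, 694, 599 and 849 in the wild-type ethanol libraries. Tmem97 in the livers labelled knockout was at 1059.9, 1127, 786 and 941 on control diet and at 621, 535, 687 and 744 after ethanol. Tmem97 fell to 0.688-fold (95% interval 0.539 to 0.877, limma adjusted p = 0.0171) in wild type and to 0.663-fold (95% interval 0.519 to 0.845, limma adjusted p = 0.0195) in the labelled knockout. In wild type 1 ethanol library lay above the lowest control library. Abcg5 and Abcg8, the paired half-transporters that export sterols into bile, did not pass for ethanol. Abcg5 was at 1337, 1563, 1561 and 1689.8 normalised reads in wild-type control libraries 1 to 4 and at 1009.8, 1039, 1117 and 1225 in the wild-type ethanol libraries. Abcg5 in the livers labelled knockout was at 1592, 1316, 592 and 989 on control diet and at 807, 1094, 868 and 921 after ethanol. Abcg5 was at 0.715-fold (95% interval 0.525 to 0.973, limma adjusted p = 0.0799) in wild type and at 0.871-fold (95% interval 0.640 to 1.19, limma adjusted p = 0.533) in the labelled knockout. The Abcg5 diets were apart in wild type and overlapped in the labelled knockout. Abcg8 was at 1436, 1869, 1843 and 1673 normalised reads in wild-type control libraries 1 to 4 and at 1018, 932, 1373 and 1642 in the wild-type ethanol libraries. Abcg8 in the livers labelled knockout was at 1494, 1088, 715 and 1036 on control diet and at 698, 984, 748 and 771 after ethanol. Abcg8 was at 0.713-fold (95% interval 0.532 to 0.957, limma adjusted p = 0.0653) in wild type and at 0.758-fold (95% interval 0.565 to 1.02, limma adjusted p = 0.169) in the labelled knockout. Both Abcg8 comparisons overlapped. These neighbouring genes share 82 exon bases on opposite strands.

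**Figure D3:**
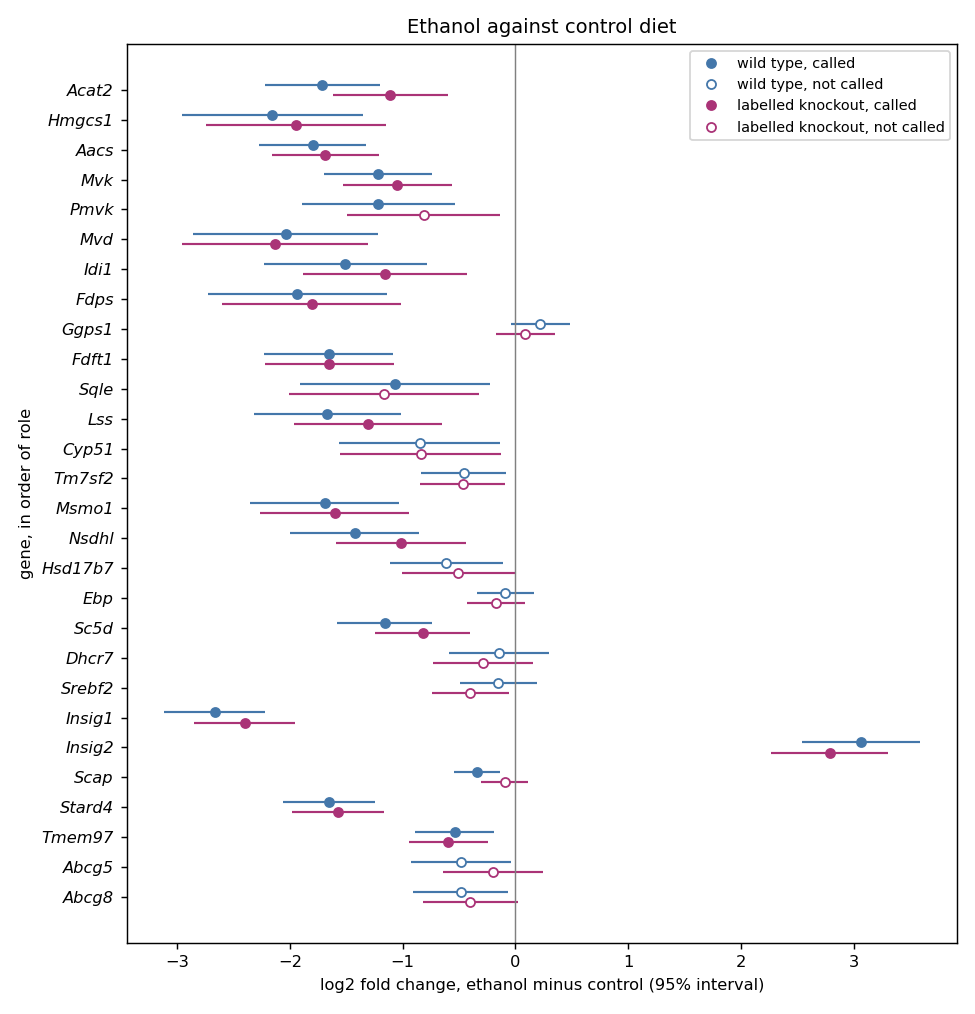
Points are log2 fold changes with ethanol, with 95% intervals from limma, for each gene in wild type and in the labelled knockout, filled where called. Points of both genotypes lie left of 0 for most genes and far right of 0 for Insig2.

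Leaving out 1 library ended the calls of Sqle and Tmem97 in wild type and of Idi1 and Tmem97 in the labelled knockout. In wild type 14 of the 19 calls held under every alternative run, and the others were Pmvk, Idi1, Sqle, Scap and Tmem97, all lost without wild-type control libraries 2 and 3, where 14 calls were left. There the log2 change went from -1.22 to -0.54 for Pmvk, -1.51 to -0.91 for Idi1, -1.07 to -0.40 for Sqle, -0.34 to -0.19 for Scap and -0.54 to -0.33 for Tmem97. Sqle was also lost on leaving out any 1 of 10 single libraries (log2 change -1.09 to -0.60, limma adjusted p = 0.0503 to 0.155), namely wild-type control 2 or 3, wild-type ethanol 2 or 3, labelled knockout control 2, 3 or 4, or labelled knockout ethanol 1, 2 or 4, and without labelled knockout ethanol 1 and 4 together (limma adjusted p = 0.0653). Tmem97 was lost without wild-type control library 3 (log2 change -0.38, limma adjusted p = 0.0657). In the labelled knockout 8 of 16 calls held throughout, those of Hmgcs1, Aacs, Mvd, Fdft1, Msmo1, Insig1, Insig2 and Stard4. The other 8 were lost without labelled knockout ethanol libraries 1 and 4, where the log2 change was -1.02 for Acat2, -0.96 for Mvk, -1.02 for Idi1, -1.67 for Fdps, -1.22 for Lss, -0.93 for Nsdhl, -0.82 for Sc5d and -0.68 for Tmem97 (limma adjusted p = 0.0536 to 0.183). Of these 8, Idi1 was lost without labelled knockout control 2 or 4 or ethanol 1, 2 or 4 (log2 change -1.15 to -0.94, limma adjusted p = 0.0580 to 0.0800), and Tmem97 without control 1 or 2 or ethanol 2 (log2 change -0.55 to -0.51, limma adjusted p = 0.0546 to 0.0684). No direction reversed. Beside the falls, 8 of 9 Kupffer cell and macrophage markers fell in wild type and 1 of 9 in the labelled knockout, and 4 and 3 of 6 endothelial markers rose. Of the 7 hepatocyte markers 2 rose in wild type, and 1 rose and 1 fell in the labelled knockout. The part of these shifts in the sterol genes was not tested.

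The ethanol effects passed no test of a difference between genotypes for any of the 28 genes. None was called in the test of the difference by limma, edgeR or DESeq2, and 0 had an unadjusted p under 0.05 in limma. Among tested genes limma called 0.347% (0.143% higher and 0.204% lower), edgeR 0.226% and DESeq2 2.17%, and 13.4% had an unadjusted p under 0.05 in limma. The differences, labelled knockout minus wild type, ran from -0.28 for Insig2 to 0.61 for Acat2 on the log2 scale. Their median was 0.10, and its sign depended on the libraries: leaving out 1 library gave -0.12 to 0.26, the lowest without wild-type control library 3, and without wild-type control 2 and 3 it was -0.27. As a ratio of folds the Insig2 difference was 0.824 (95% interval 0.495 to 1.37) and that of Acat2 1.52 (0.923 to 2.51). For Hmgcs1 it was 1.16 (0.529 to 2.53), so a difference of moderate size either way would not have been detected.

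Genotype touched few of the 28. On control diet 3 genes were lower in livers labelled knockout and none higher, against 5.24% of tested genes lower, 6.4% higher and 11.6% in either direction. After ethanol 2 were lower and none higher, against 3.75% lower, 6.13% higher and 9.88% in either direction. Both shares, 3 of 28 and 2 of 28, are near the background. These comparisons use the same libraries as those of ethanol. The median log2 difference of the 28 was -0.31 on control diet and -0.17 after ethanol, and that of all tested genes -0.01 and -0.02. Leaving out 1 library gave medians of the 28 from -0.49 (without wild-type control 1) to -0.07 (without wild-type control 3) on control diet, and from -0.35 (without wild-type ethanol 3) to -0.08 (without wild-type ethanol 4) after ethanol. Without wild-type control 2 and 3 the control-diet median was 0.12, so that its sign turned. Groups did not overlap for 3 genes on control diet, against 17.4% of tested genes, and for 4 after ethanol, against 15.7%. Unadjusted, 9 genes on control diet and 6 after ethanol had p under 0.05 in limma, against 26.1% and 24.5% of tested genes, in either direction. On the recovered reads edgeR called 2 and 1 of the 28, against 11.5% and 9.66%, and DESeq2 5 and 3, against 14.5% and 12.9%.

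Stard4 was lower in the labelled knockout on both diets, at 0.508-fold (95% interval 0.383 to 0.674, limma adjusted p = 0.00372) of wild type on control diet and 0.538-fold (95% interval 0.406 to 0.715, limma adjusted p = 0.00657) after ethanol. The library values given above did not overlap between genotypes on either diet. The control difference was lost without wild-type control 2 and 3 together with labelled knockout control 2 and 4 (log2 change -1.11, limma adjusted p = 0.0537). That after ethanol was lost without labelled knockout ethanol 1 and 4 (log2 change -0.84, limma adjusted p = 0.0755), and with ethanol libraries 1 and 2 alone (log2 change -0.55, limma adjusted p = 0.150). No single library ended either call. Scap was lower on control diet, at 0.702-fold (95% interval 0.609 to 0.811, limma adjusted p = 0.00295), and its libraries did not overlap on either diet, although it did not pass after ethanol at 0.833-fold (95% interval 0.722 to 0.961, limma adjusted p = 0.101). Without wild-type control libraries 2 and 3 the Scap call was lost (log2 change -0.36, limma adjusted p = 0.0549). The comparisons on the 2 diets share no library, though the fit pools their spread.

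The sterol exporters and Ebp gave weaker genotype differences. Abcg8 was at 0.618-fold (95% interval 0.461 to 0.829, limma adjusted p = 0.0333) in the labelled knockout on control diet and 0.656-fold (95% interval 0.489 to 0.880, limma adjusted p = 0.0654) after ethanol. The control call did not survive leaving out any 1 of wild-type control 2, 3 or 4 or labelled knockout control 2, 3 or 4 (log2 change -0.71 to -0.51, limma adjusted p = 0.0575 to 0.0963), with the replicate number as a block (limma adjusted p = 0.0537), without labelled knockout ethanol 1 and 4 together (limma adjusted p = 0.0536), and in edgeR (adjusted p = 0.0535), and labelled knockout library 1 lay inside the wild-type range. Abcg5 was at 0.687-fold (95% interval 0.505 to 0.935, limma adjusted p = 0.108) on control diet. Ebp was at 2608, 2593, 3478 and 2605 normalised reads in wild-type control libraries 1 to 4 and at 2270.0, 2389.8, 2097 and 2193 in the labelled knockout on control diet. After ethanol Ebp was at 2996, 2953, 2358 and 2287 in wild type and at 1896, 2233, 1741 and 2104 in the labelled knockout. Genotypes did not overlap for Ebp on either diet. Its difference was 0.799-fold (95% interval 0.670 to 0.953, limma adjusted p = 0.0930) on control diet and 0.755-fold (95% interval 0.633 to 0.901, limma adjusted p = 0.0423) after ethanol. The Ebp call after ethanol was lost without any 1 of 9 libraries (log2 change -0.43 to -0.34, limma adjusted p = 0.0512 to 0.136), namely wild-type control 1 or 4, wild-type ethanol 1 or 2, labelled knockout control 2 or 4, or labelled knockout ethanol 1, 3 or 4. With the replicate number as a block its limma adjusted p = 0.0624, and without labelled knockout ethanol 1 and 4 together it was 0.185 (log2 change -0.41). Sc5d did not overlap between genotypes after ethanol and was not called, at 0.827-fold (95% interval 0.616 to 1.11, limma adjusted p = 0.436).

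Of the cell marker lists, that of macrophages was called most often for the genotype. Macrophage and Kupffer cell markers were higher in the labelled knockout for 6 of 9 genes on control diet and 9 of 9 after ethanol. Their summed share of reads was 0.0183 to 0.0406% in wild-type and 0.0502 to 0.0835% in labelled knockout control livers, and 0.00652 to 0.00999% and 0.0445 to 0.0493% after ethanol. Of 7 hepatocyte markers 1 and 2 were lower on the respective diets. Of 6 endothelial markers 0 were called on either diet. Of 5 stellate markers 1 was higher and 1 lower on control diet, and 2 were higher and 1 lower after ethanol. Of 4 cholangiocyte markers 1 was higher on control diet and 0 were called after ethanol. The 1 lymphocyte marker tested was not called. Among all tested genes limma called 11.6% on control diet and 9.88% after ethanol, in either direction. The part of these markers in the differences of Stard4, Scap, Abcg8 and Ebp was not tested.

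**Figure D4:**
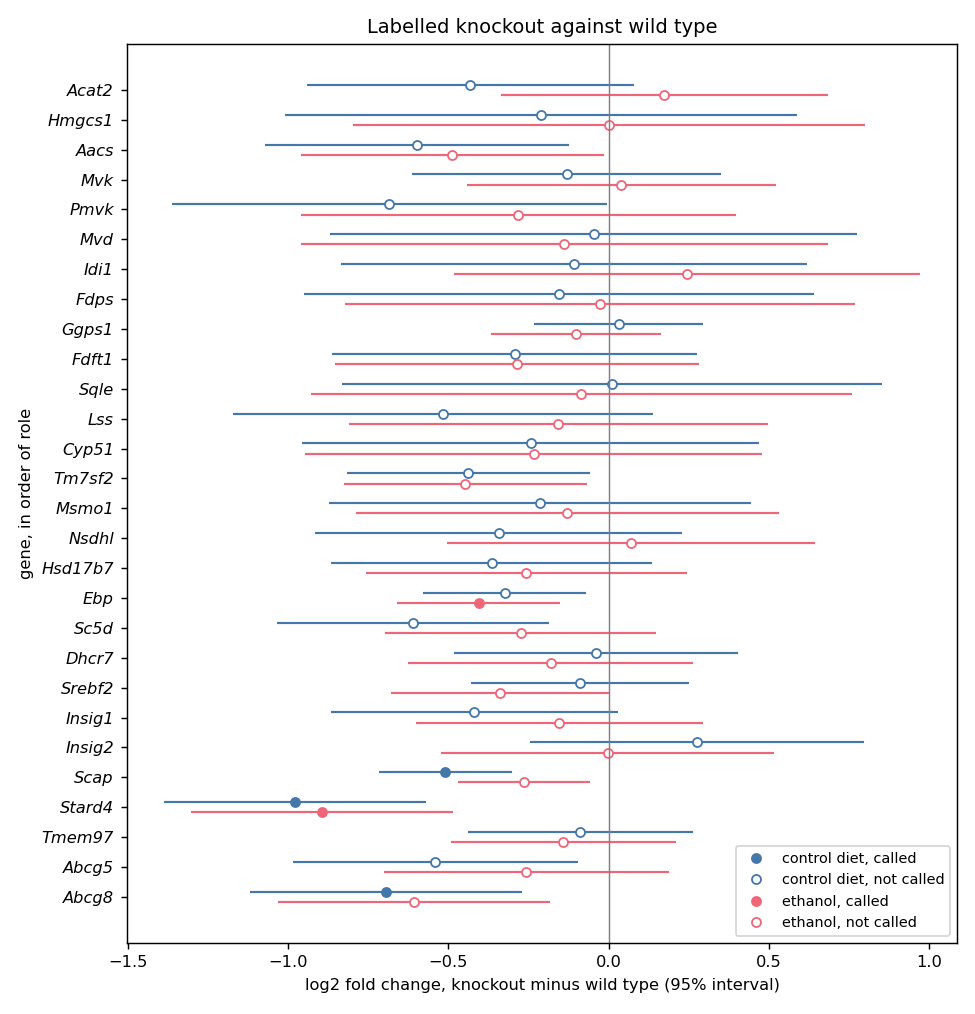
Points are log2 fold changes of the labelled knockout against wild type with 95% intervals from limma, on control diet and after ethanol, filled where called. Stard4 is called on both diets, Scap and Abcg8 on control diet and Ebp after ethanol, and the remaining points are open.

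Within groups, most genes of the pathway rose and fell together from library to library. Deviations from the group means, in log2, of each gene were set against the mean deviation of the other 27 over the 16 libraries. Pearson's r exceeded 0.8 for 15 of 28 genes and 0.5 for 21. For comparison, 0.181% of the 13256 tested genes, members included, exceeded 0.8 against the mean of the 28. These coefficients are a description, since the points share libraries and normalisation. The highest were Lss at 0.971, Hmgcs1 at 0.953 and Fdft1 at 0.949, and the lowest were Ggps1 at 0.0452, Abcg5 at 0.0910, Insig2 at 0.141 and Abcg8 at 0.179. Stard4 at 0.381 and Aacs at 0.302 were also low. The median within-group SD of the 28 was 0.37 on the log2 scale, against 0.25 over all tested genes.

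Wild-type control library 3 was the highest of its group for 24 of the 28 genes and labelled knockout control library 4 for 19. Wild-type ethanol library 4 was the highest of its group for 18 and library 3 the lowest for 21. Averaged over the 28, log2 levels in wild-type control libraries 1 to 4 were 9.93, 10.47, 10.98 and 10.06, a range of 1.04. The labelled knockout ethanol libraries were the most alike, at 9.13, 9.18, 9.26 and 9.14. Between these, wild-type ethanol libraries spanned 0.73 and labelled knockout control libraries 0.49. The SREBP1 and lipogenic list showed the same library as highest in wild-type control, at 13.53 in library 3 against 12.06 to 12.44 in the others. This did not hold in the other groups. Wild-type ethanol library 3 was the lowest for the 28, at 8.94, and the highest for the lipogenic list, at 11.26. Labelled knockout control library 4 was the highest for the 28, whereas library 2 was for the lipogenic list (12.26 against 11.60). In labelled knockout ethanol these were library 3 and library 2. For Hmgcs1 the highest wild-type control library was 3.97 times the lowest, and for Sqle 3.44 times.

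Other genes of sterol and acetyl-CoA metabolism were taken from lists that share no gene with the 28. For ethanol, limma called 38% of all tested genes in wild type and 19.2% in the labelled knockout, in either direction. For the genotype it called 11.6% on control diet and 9.88% after ethanol. Of 8 SREBP1 and lipogenic genes 7 fell with ethanol in wild type and 6 in the labelled knockout, and none rose, a median log2 change of -1.88 and -1.66. Srebf1, which encodes the lipogenic SREBP1, fell to 0.152-fold (limma adjusted p = 3.75e-06) in wild type and 0.186-fold (limma adjusted p = 4.07e-05) in the labelled knockout. Fasn, fatty acid synthase, fell to 0.240-fold (limma adjusted p = 5.28e-06) and 0.226-fold (limma adjusted p = 1.41e-05). Of 7 genes of acetyl-CoA supply and ketogenesis 4 fell in wild type and 3 in the labelled knockout. Acly, which makes cytosolic acetyl-CoA from citrate, was at 11294, 10567, 31006 and 10174 normalised reads in wild-type control libraries 1 to 4 and at 1247, 1049.8, 4095 and 3205 after ethanol. Library 3 was the highest of its group on both diets. Acly fell to 0.146-fold (limma adjusted p = 6.30e-05) in wild type and in the labelled knockout to 0.185-fold (limma adjusted p = 6.31e-04). For the genotype 2 of the 8 lipogenic genes were lower on each diet, Scd1 and Fasn on control diet and Thrsp and Fasn after ethanol. Of these, the Scd1 call did not survive leaving out library 3 of either control-diet group (limma adjusted p = 0.0571 to 0.0597). The Fasn call was lost without any 1 library other than wild-type control 2 on control diet (limma adjusted p = 0.0502 to 0.0985), and without any 1 of 5 libraries after ethanol (limma adjusted p = 0.0671 to 0.0819), namely wild-type ethanol 1 or 4 or labelled knockout ethanol 1, 3 or 4.

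Genes listed as electron donors of the sterol oxygenases moved in both directions. Por, the P450 reductase that feeds Cyp51 and Sqle, rose with ethanol to 3.97-fold (limma adjusted p = 1.60e-06) in wild type and 2.57-fold (limma adjusted p = 1.92e-04) in the labelled knockout. Cyb5b and Cyb5r3, which encode a cytochrome b5 and a cytochrome b5 reductase, fell in both genotypes, to 0.512-fold (limma adjusted p = 2.09e-05) and 0.546-fold (limma adjusted p = 2.77e-05) in wild type. Whether Cyb5b serves the sterol enzymes was not tested. Cyb5a, of the same list, rose in wild type, with control libraries at 8178 to 10812 normalised reads and ethanol libraries at 13568 to 17826. In the labelled knockout these were at 6207 to 9683 and 9706 to 10535, and Cyb5a was not called for ethanol. After ethanol it was called lower in the labelled knockout than in wild type. Of 11 genes of SREBP cleavage and INSIG-linked degradation 2 rose and 1 fell in wild type and 1 fell in the labelled knockout. The shares of all tested genes called were 38% and 19.2%. In wild type Mbtps2, the site-2 protease, rose to 1.38-fold (limma adjusted p = 0.00352) and Erlin2 fell to 0.718-fold (limma adjusted p = 4.38e-04). The other rise in wild type was that of Pgrmc1, a call lost without any 1 of 9 libraries (limma adjusted p = 0.0511 to 0.134). The fall in the labelled knockout was that of Vcp. Of 13 genes of the non-sterol isoprenoid branches 1 rose and 1 fell in each genotype, Nus1 and Dolk of dolichol synthesis, where the Dolk call in the labelled knockout was lost without any 1 of 6 libraries (limma adjusted p = 0.0582 to 0.0966), namely labelled knockout control 1, 2 or 4 or labelled knockout ethanol 1, 2 or 4. The median change over these 13 was -0.05 in wild type and -0.04 in the labelled knockout on the log2 scale, against -1.19 and -0.93 for the 28.

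Of 17 genes of sterol storage, transport and uptake 4 rose and 5 fell with ethanol in wild type, and 2 rose and 2 fell in the labelled knockout. The shares of all tested genes called in either direction were 38% and 19.2%. Soat2, which esterifies cholesterol in hepatocytes, rose to 2.30-fold (limma adjusted p = 1.95e-04) and 1.66-fold (limma adjusted p = 0.0159), and Nceh1, a cholesteryl ester hydrolase, to 1.91-fold (limma adjusted p = 9.39e-05) and 2.31-fold (limma adjusted p = 3.39e-05). Without labelled knockout control library 2 the second Soat2 call was lost (limma adjusted p = 0.0517). Pltp, the phospholipid transfer protein, was at 446, 437, 1165 and 465 normalised reads in wild-type control libraries 1 to 4 and at 133, 124, 137 and 124 after ethanol. Pltp in the livers labelled knockout was at 261, 295, 222 and 229 on control diet and 315, 203, 168 and 185 after ethanol. It was the 1 gene of these lists called for a difference of the ethanol effects, at a log2 difference of 1.89 (limma adjusted p = 0.0356), a call lost without any 1 of wild-type ethanol 1 or 2, the 4 labelled knockout control libraries, or labelled knockout ethanol 1, 2 or 4 (limma adjusted p = 0.0531 to 0.0949). For the genotype 2 of the 17 were higher and 2 lower on each diet, against 11.6% and 9.88% of tested genes in either direction. Pltp was at 0.440-fold (limma adjusted p = 0.00642) in the labelled knockout on control diet, and after ethanol Soat1, the sterol esterifying enzyme of macrophages and many other cells, was at 2.06-fold (limma adjusted p = 0.00333) and Soat2 at 0.546-fold (limma adjusted p = 0.00850). The macrophage markers given above were also higher in the labelled knockout after ethanol. With ethanol in wild type 8 of 9 of them fell, while Soat1 was not called. It was at 33.5 to 70.6 normalised reads in wild-type control and 34.8 to 40.5 in wild-type ethanol libraries. The part of these markers in the Soat1 difference was not tested.

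Of 4 genes of bile acid synthesis 2 fell with ethanol in wild type by limma and none in the labelled knockout, where 2 had an unadjusted p under 0.05. Of all tested genes limma called 38% and 19.2% in either direction. By edgeR, and also by DESeq2, 1 of the 4 was called in wild type and 1 in the labelled knockout. Cyp7a1, the rate-limiting enzyme, was at 3086, 1409, 3618 and 3500.1 normalised reads in wild-type control libraries 1 to 4 and at 90.9, 58.3, 3090.5 and 153 after ethanol. Cyp7a1 in the livers labelled knockout was at 1746, 3240.0, 5719 and 5518 on control diet and 568, 735, 1875 and 897 after ethanol. Wild-type ethanol library 3 lay within the control range, unlike the other 3 of its group. Cyp7a1 fell to 0.0828-fold (limma adjusted p = 0.00359) in wild type and was at 0.251-fold (limma adjusted p = 0.112) in the labelled knockout, and the difference of these effects did not pass (limma adjusted p = 0.596).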

How the data were processed

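Snap-frozen livers gave 16 libraries, read as single 75 bp reads, per the labels' protocols. The submitters' processing notes name HISAT2, HTSeq, edgeR and GRCm38, with an annotation release and strand setting not given in the sources used here. Deposited values have the unit signal: the authors scaled each library's gene counts by its own factor. Dividing by the value of 1 read returned whole reads for 100% of values, within 0.01 of a read. Of 27288 identifiers 27233 had a symbol, and coordinates and exon lengths are from GENCODE on GRCm38.

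Values were tested with limma 3.58.1 (R 4.3.3) as log2(value + 1), keeping the 13256 genes whose mean was 10 or more, with all 4 groups and a trend in the fit. Adjustment was by Benjamini-Hochberg over these genes, and genes under 0.05 were called. Folds are of value + 1, which shrinks those of low genes. The method was tested on simulated data. Levels between genes are per kilobase of merged exons. Replicates always differed by more than the sampling noise of reads, so none was treated as a repeat sequencing of another. That comparison cannot show that they come from separate mice.

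The members and lists were chosen with earlier results of these data known. Every member may be named, and from the other lists up to 3 called genes with the smallest p per comparison. Alternatives were other pseudocounts and filters, a fit without the trend, a fit of only the compared groups, a replicate block, leaving out each library or sets of ethanol libraries, and edgeR 4.0.16 and DESeq2 1.42.0 on the whole reads. The control libraries left out together, and the block in the ethanol groups alone, were chosen after seeing the data.

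Deviations of same-numbered libraries from their group means were correlated across genes. Between the ethanol groups all 4 pairs exceeded 0.1 (0.102 to 0.246). Pairs of unlike number were also high, at 0.199 for wild-type 4 with labelled knockout 3 and 0.176 for wild-type 1 with labelled knockout 2. Only 2 wild-type ethanol libraries were closest to the library of their own number. Libraries 1 and 2 of either genotype ran against 3 and 4 of the other (-0.250 to -0.0762). The values therefore do not settle whether the numbers pair libraries, and no label explains the numbers. The main fit has no replicate block. In the other comparisons same-numbered libraries gave -0.125 to 0.0361. Marchf6, Hsd3b7 and some further genes of these pathways are not reported here.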

Additional observations from a re-analysis of the deposited data

Results flagged for a closer look

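Among 112 sets of 4 libraries (28 genes in 4 groups), 4 held a library whose gap to the nearest other exceeded Dixon's 95% critical value, where chance gives about 1 in 20. Insig1 was at 5086 normalised reads in wild-type control library 3 against 3203 to 3476 in the other 3. Ebp was at 3478 in the same library against 2593 to 2608. Msmo1 was at 1174 in labelled knockout ethanol library 3 against 887 to 936, and Tm7sf2 at 1181 in library 4 of that group against 980 to 1011.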

How the results depend on the processing

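The number of the 28 genes called kept within 1.5 times its value for ethanol in wild type and for the difference of the ethanol effects (0 throughout) under every alternative run. For the genotype on control diet, 3 genes, it was 5 in DESeq2, 1 without wild-type control libraries 2 and 3, and 0 without these and labelled knockout control 2 and 4. For the genotype on ethanol, 2 genes, it was 1 with no filter, no trend, only the groups compared, edgeR, ethanol libraries 3 and 4 alone, or without the 4 control libraries just named, and 0 without labelled knockout ethanol 1 and 4 or with ethanol libraries 1 and 2 alone. For ethanol in the labelled knockout, 16 genes, it was 8 without ethanol libraries 1 and 4 and 10 with ethanol libraries 3 and 4 alone. Leaving out 1 library at a time gave 2 to 4, 1 to 3, 17 to 22 and 14 to 19 for the genotype on control diet, the genotype on ethanol, ethanol in wild type and ethanol in the labelled knockout. No gene reversed direction while called. The causes were not tested, other than that fewer libraries entered.

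With the replicate number as a block, the genotype on ethanol gave 1 gene, also with the block in the ethanol groups only. The block ended the calls of Abcg8 on control diet, Ebp on ethanol and Sqle for ethanol in wild type (limma adjusted p = 0.0679), and changed no other call of the 28. Depth limits Idi1 most, which had the fewest reads.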
